A study of Eleusine coracana with 4 samples.

Results

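Lipoxygenase transcripts were followed in leaves of finger millet (Eleusine coracana), a cereal, with and without salt. The reads were counted on loci with identifiers of the MSU rice form, and the 10 loci described here were selected as lipoxygenases from a list of locus identifiers, out of 55986 features in all. The list was drawn up with results of these data known, so the values below describe these loci and are not tests. The labels give 2 genotypes, CO12 and Trichy 1, and 4 groups of 1 library each. In CO12 salt and Trichy 1 salt, plants received 300 mM NaCl at the 4-leaf stage, 20 days after sowing. In CO12 control and Trichy 1 control, plants were kept well watered. The labels give day 20 for these controls too, and no leaf stage. All plants were raised in pots of fertilized field soil, and the top young, fully expanded leaves were taken. The labels do not say how long salt was applied, how many plants went into a library, or which genotype is the tolerant one of the series title. With 1 library per group no difference has a replicate check, and all intervals below are 95% intervals that cover counting error only.

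Lipoxygenases insert oxygen into polyunsaturated fatty acids such as linoleic and linolenic acid, which gives fatty acid hydroperoxides. In plants these hydroperoxides feed several branches. The allene oxide synthase branch in the plastid leads through oxophytodienoic acid to jasmonic acid, a hormone of wounding, herbivory and stress responses. The hydroperoxide lyase branch gives green leaf volatiles. Plant genomes hold several lipoxygenase genes, which differ in the carbon they oxygenate and in whether the enzyme is in the plastid. The tables do not say to which of these types each locus belongs, so the loci are grouped here by their place in the identifier series. LOC_Os12g37260 and LOC_Os12g37350 form a pair on rice chromosome 12, with 8 other loci of the table between them. LOC_Os08g39840 and LOC_Os08g39850 are direct neighbours on chromosome 8. LOC_Os03g49260, LOC_Os03g49350 and LOC_Os03g49380 form a run on chromosome 3, with 8 other loci among them. LOC_Os02g10120, LOC_Os03g08220 and LOC_Os03g52860 stand alone. The chromosomes are those of the rice identifiers and need not be those of finger millet.

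The libraries held 1831353 (CO12 salt), 6272817 (CO12 control), 2406821 (Trichy 1 salt) and 3347497 (Trichy 1 control) total gene reads, so each salt library was shallower than its control. In each, 20 features took between 95.5% and 96.1% of the reads. Levels are given in RPM, the reads of a locus scaled to a library total of 1000000, and 1 read was worth 0.546 RPM in CO12 salt, 0.159 in CO12 control, 0.415 in Trichy 1 salt and 0.299 in Trichy 1 control. Reads that matched 1 place only, called unique, made up 89.6% to 93.1% of each library. The tables name no genes, so the labelled tissue was not checked against leaf markers. In bulk leaf RNA, fewer cells of a type and less RNA per cell cannot be told apart.

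Lipoxygenase transcripts took a larger share of the leaf reads under salt in both genotypes. The 10 loci together had 180 reads in CO12 salt against 141 in CO12 control, although the salt library was the shallower one. This is 98.3 RPM (84.9 to 114) in CO12 salt and 22.5 RPM (19.1 to 26.5) in CO12 control, a ratio of 4.37 (3.49 to 5.49). With TMM factors over all features the log2 ratio in CO12 was 1.36, against 2.12 with library totals. In Trichy 1 they had 190 reads under salt and 108 in control, 78.9 RPM (68.5 to 91) against 32.3 RPM (26.7 to 38.9), a ratio of 2.45 (1.92 to 3.13). The highest and the lowest sums were thus both in CO12. Without LOC_Os12g37260, the locus with the most reads, the ratios were 4.31 (3.27 to 5.68) in CO12 and 2.25 (1.68 to 3.02) in Trichy 1.

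With library totals, the features over a minimum of reads were by their median shifted slightly the other way. The median log2 ratio, salt over control, was -0.15 over the 1025 CO12 features that reached 20 reads in the salt or the control library, and -0.25 over the 727 such features of Trichy 1. The log2 ratio of the summed lipoxygenase reads lay 2.28 above that median in CO12 and 1.53 above it in Trichy 1. The sum includes loci under 20 reads, while the median leaves such features out. A locus was called higher or lower when it reached 20 reads in the salt or the control library and was at least 2-fold apart. In CO12, 4 of the 10 loci passed the minimum of 20 reads and 4 were called higher and 0 lower, where 10.8% of all features over the minimum were called higher and 19.1% lower. In Trichy 1, 3 loci passed and 2 were called higher and 0 lower, against 11.7% higher and 17.2% lower among all features. A locus can pass the minimum through the library in which it is high, so these counts support nothing beyond themselves. The counting interval lay wholly above 2-fold for 2 of the 4 loci in CO12, where it did for 4.68% of the features, and for 0 of the 3 in Trichy 1, where it did for 4.4%. Among the loci over the minimum, the median log2 ratio was 1.81 in CO12 and 1.55 in Trichy 1.

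**Figure D1:**
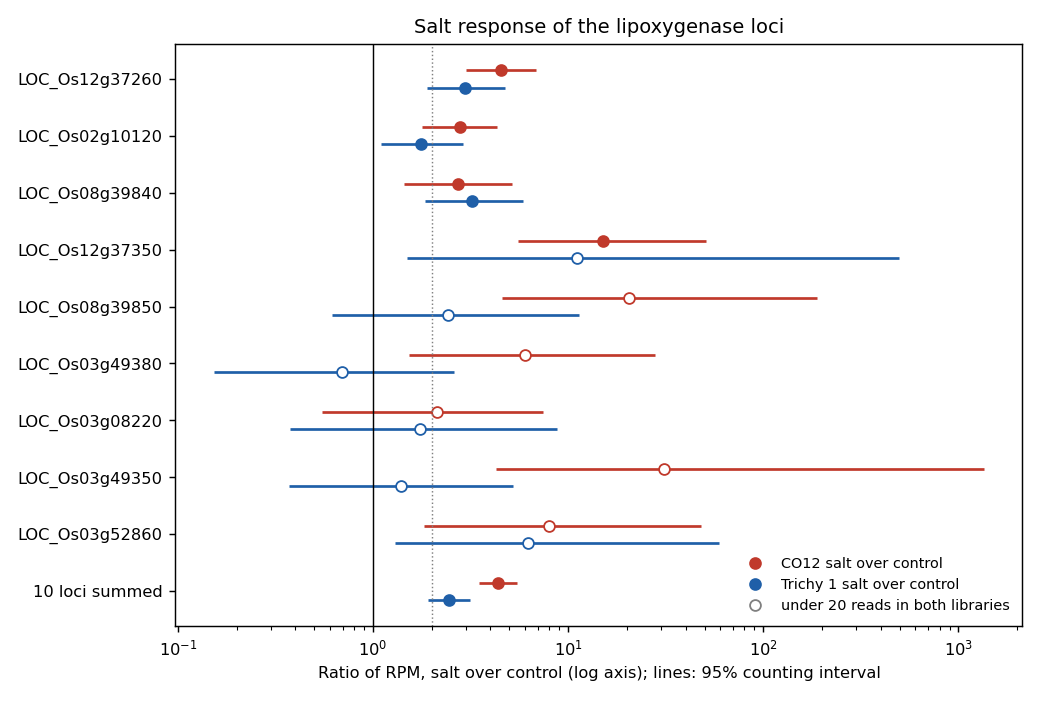
Ratio of RPM, salt over control, for each lipoxygenase locus with reads in all 4 libraries and for the 10 loci summed, on a log axis, with 95% counting intervals as lines. Red is CO12 and blue Trichy 1, and open circles mark loci under 20 reads in both libraries. The red points lie right of the line of equality for each locus shown, while the blue point of LOC_Os03g49380 lies left of it.

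The counts of all features moved with the scaling. With TMM factors over all features, 35 were higher and 469 lower under salt in CO12 and 71 and 172 in Trichy 1, against 111 and 196 in CO12 and 85 and 125 in Trichy 1 with library totals. With median-of-ratios factors they were 50 and 377 in CO12 and 70 and 173 in Trichy 1. In Trichy 1 they were 96 and 99 for totals less the 20 most abundant features, 105 and 83 with TMM factors over features at the minimum, and 103 and 94 with median-of-ratios factors over those features. A scaling moves the summed lipoxygenase reads and the median together, so their distance is fixed by construction. In unique reads that distance was 2.03 in CO12 and 1.38 in Trichy 1, against 2.28 and 1.53 in total reads.

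Below the minimum, single reads decide. With any read in either library counted, 9 of the 9 lipoxygenase loci with reads had a higher RPM in CO12 salt and were at least 2-fold higher there, where 39.7% and 27.9% of all 24267 such features were. In Trichy 1, 9 of 10 loci had a higher RPM under salt and 5 were at least 2-fold higher, where 50.6% and 34.3% of 20467 features were. Most of those features have a few reads, so these shares mix depth with level.

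The chromosome 12 pair held the locus with the most reads and, in CO12, the one with the highest ratio among the lipoxygenase loci over the minimum. In Trichy 1 the highest ratio among them was that of LOC_Os08g39840, 3.22 (1.84 to 5.84). LOC_Os12g37260 (5590 bp in the deposited table) had 31.7 RPM in CO12 salt and 7.01 RPM in CO12 control, from 58 and 44 reads. The Trichy 1 libraries had 26.6 RPM under salt and 8.96 RPM in control, from 64 and 30 reads. Both salt libraries were above both control libraries. The ratio was 4.52 (3.00 to 6.84) in CO12, the 22nd highest of 1025 features, and 2.97 (1.89 to 4.74) in Trichy 1, the 42nd highest of 727. LOC_Os12g37350 (2002 bp) had 12 RPM in CO12 salt and 0.797 RPM in CO12 control, from 22 and 5 reads. The ratio was 15.1 (5.57 to 50.9). By the same ranking the locus was 3rd highest of the 1025 features, and it passed the minimum of 20 reads only through the salt library. In unique reads, 6 in CO12 salt and 4 in CO12 control, the ratio was 4.95 (1.17 to 23.8), and the locus was under the minimum. In Trichy 1 it had 8 reads under salt and 1 in control, 3.32 against 0.299 RPM, a ratio of 11.1 (1.49 to 494). CO12 salt was thus the library with the most reads of this locus, and the Trichy 1 ratio rests on a single control read.

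These 2 loci also held most of the lipoxygenase reads that matched more than 1 place. Of 22 reads of LOC_Os12g37350 in CO12 salt, 6 were unique, and of 5 reads in CO12 control, 4 were. LOC_Os12g37260 had 33 unique of 58 reads in CO12 salt and 40 of 44 in CO12 control. Its unique share was alike in Trichy 1, with 37 of 64 under salt and 17 of 30 in control. In unique reads alone, the pair had 39 reads in CO12 salt and 44 in CO12 control, a ratio of 2.92 (1.85 to 4.60), against 5.59 (3.87 to 8.15) in total reads. In its non-unique reads, 41 in CO12 salt and 5 in CO12 control, the ratio was 28.1 (11.1 to 91.1). In Trichy 1 the ratio of the pair was 3.12 (1.72 to 5.88) in unique reads and 3.23 (2.09 to 5.09) in total reads. The direction was therefore the same in unique reads, while the size in CO12 depended on reads that the tables do not place at 1 locus. Where else those reads matched was not tested. The loci between the pair gave 18 reads in all over the 4 libraries.

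**Figure D2:**
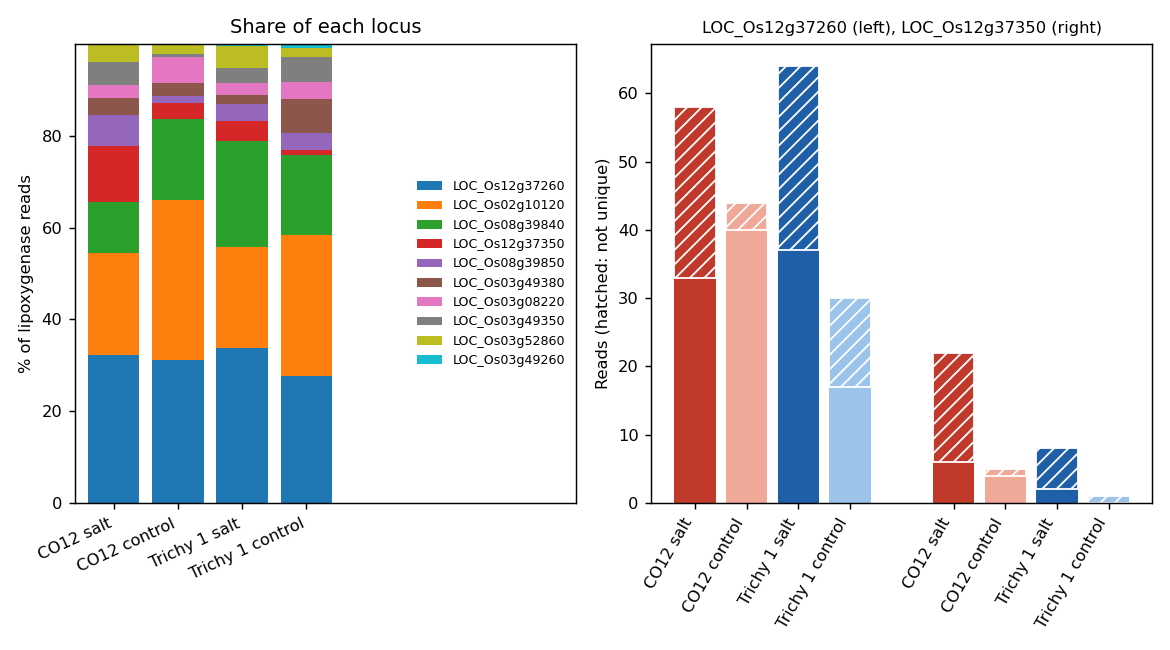
Left, the percentage of all lipoxygenase reads that each locus took in each library. Right, reads of LOC_Os12g37260 and LOC_Os12g37350 in each library, with reads that were not unique hatched; hatched reads made up 16 of 22 for LOC_Os12g37350 in CO12 salt and 1 of 5 in CO12 control.

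The chromosome 8 pair was also higher under salt. LOC_Os08g39840 (7718 bp) had 10.9 RPM in CO12 salt and 3.99 RPM in CO12 control, from 20 and 25 reads, a ratio of 2.74 (1.44 to 5.14). Trichy 1 leaves had 18.3 RPM under salt and 5.68 RPM in control, from 44 and 19 reads, a ratio of 3.22 (1.84 to 5.84). It was the only locus over the minimum in both genotypes with a higher ratio in Trichy 1 than in CO12. With unique reads that order was the other way, from 15 reads in CO12 salt and 16 in CO12 control, under the minimum. The log2 difference, Trichy 1 minus CO12, was 0.23 (-0.91 to 1.37) in total reads and -0.075 in unique reads, so the order is not resolved. LOC_Os08g39850 (9374 bp) had 12 reads in CO12 salt and 2 in CO12 control, 6.55 against 0.319 RPM, a ratio of 20.6 (4.58 to 189). In Trichy 1 it had 7 reads under salt and 4 in control, 2.91 against 1.19 RPM, a ratio of 2.43 (0.619 to 11.3), which equality lies within. Most reads of the pair were unique, 72 of 108 for LOC_Os08g39840 and 18 of 25 for LOC_Os08g39850 over the 4 libraries. In unique reads the ratio of the pair was 4.40 (2.29 to 8.60) in CO12 and 2.72 (1.45 to 5.30) in Trichy 1.

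LOC_Os02g10120 (6007 bp) had no read that matched elsewhere, so its counts do not depend on how such reads were placed. It had 21.8 RPM in CO12 salt and 7.81 RPM in CO12 control, from 40 and 49 reads, a ratio of 2.80 (1.79 to 4.33). In the other genotype, Trichy 1, it had 17.5 RPM under salt and 9.86 RPM in control, from 42 and 33 reads, a ratio of 1.77 (1.10 to 2.88), below the 2-fold line. Both salt libraries were above both control libraries. In CO12 this locus and LOC_Os08g39840 fell under 2-fold with TMM factors over all features, at log2 ratios of 0.72 and 0.68, and by the median-of-ratios scaling, at 0.95 and 0.91. Those factors shift all features alike, and they put the median of all features at -0.90 and -0.67 in CO12.

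**Figure D3:**
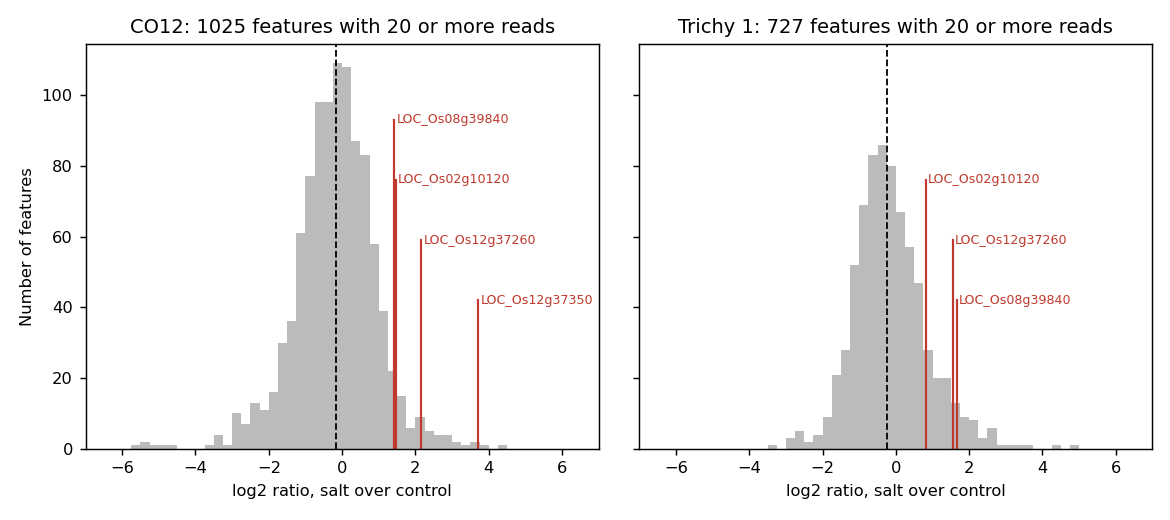
Histogram of log2 ratios, salt over control, of the features that reached 20 reads in a library of CO12 (left, 1025 features) or of Trichy 1 (right, 727 features); the dashed line is the median. Red lines mark the lipoxygenase loci over that minimum, which lie right of the median in both panels; the height of a red line has no meaning.

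The run on chromosome 3 had unlike salt ratios in the genotypes, from few reads. All its reads were unique. LOC_Os03g49350 (3003 bp) had 9 reads in CO12 salt and 1 in CO12 control, 4.91 against 0.159 RPM, a ratio of 30.8 (4.27 to 1351). In Trichy 1 it had 6 reads under salt and 6 in control, 2.49 against 1.79 RPM, a ratio of 1.39 (0.372 to 5.20). LOC_Os03g49380 (6398 bp) had 7 reads in CO12 salt and 4 in CO12 control, 3.82 against 0.638 RPM, a ratio of 5.99 (1.52 to 27.9). In Trichy 1 it had 4 reads under salt and 8 in control, 1.66 against 2.39 RPM, a ratio of 0.695 (0.153 to 2.60). LOC_Os03g49260 (4285 bp) had 0 reads in either CO12 library, which allows up to 1.64 RPM in CO12 salt and 0.478 RPM in CO12 control, and 1 read in each Trichy 1 library. Summed, the run had 16 reads in CO12 salt and 5 in CO12 control, a ratio of 11 (3.84 to 38.3). In Trichy 1 it had 11 reads under salt and 15 in control, a ratio of 1.02 (0.424 to 2.38). The lowest of the 4 libraries was CO12 control, with 0.797 RPM, and the other 3 had between 4.48 and 8.74 RPM.

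The remaining loci had few reads. LOC_Os03g52860 (3518 bp) had 7 reads in CO12 salt and 3 in CO12 control, a ratio of 7.99 (1.82 to 47.9), and 9 under salt and 2 in control in Trichy 1, a ratio of 6.26 (1.30 to 59.5). Its levels were close in the genotypes, with 3.82 RPM in CO12 salt, 0.478 RPM in CO12 control, 3.74 RPM in Trichy 1 salt and 0.597 RPM in Trichy 1 control. LOC_Os03g08220 (6433 bp) had 5 reads in CO12 salt, 8 in CO12 control, 5 in Trichy 1 salt and 4 in Trichy 1 control. Its ratios of 2.14 (0.551 to 7.42) in CO12 and 1.74 (0.374 to 8.76) in Trichy 1 have intervals that include equality. No salt response of this locus was detected in these reads.

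**Figure D4:**
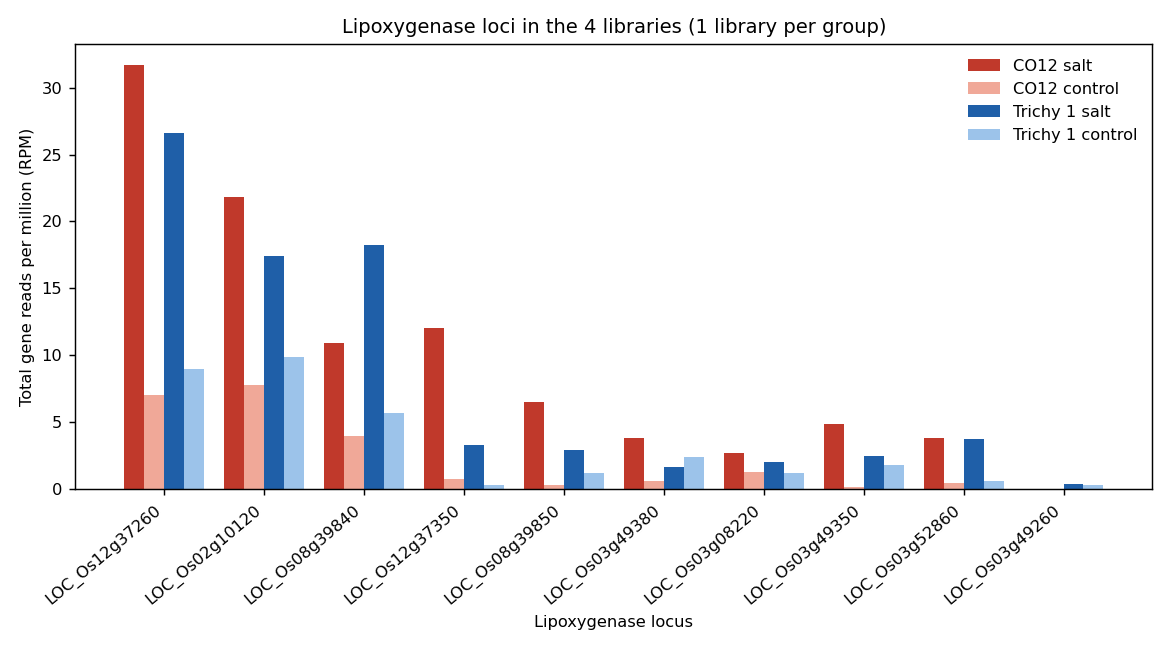
RPM of each lipoxygenase locus in the 4 libraries, 1 bar per library, loci in order of their reads over all libraries. LOC_Os12g37260, LOC_Os02g10120 and LOC_Os08g39840 are the tallest, and the salt bars of each stand above its control bars.

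The make-up of the lipoxygenase reads was unlike in the CO12 libraries. The 3 loci with the most reads, LOC_Os12g37260, LOC_Os02g10120 and LOC_Os08g39840, took 65.6% (58.4% to 72.1%, Wilson interval) of the lipoxygenase reads in CO12 salt and 83.7% (76.7% to 88.9%) in CO12 control. In Trichy 1 they took 78.9% (72.6% to 84.1%) under salt and 75.9% (67.1% to 83%) in control. The other 7 loci, a set formed after their values were seen, had 62 reads in CO12 salt and 23 in CO12 control, a ratio of 9.23 (5.64 to 15.6). In Trichy 1 these 7 had 40 reads under salt and 26 in control, a ratio of 2.14 (1.27 to 3.65). LOC_Os12g37350 alone took 12.2% (8.21% to 17.8%) of the lipoxygenase reads in CO12 salt and 3.55% (1.52% to 8.03%) in CO12 control. Of the unique lipoxygenase reads it took 6 of 131 in CO12 salt and 4 of 127 in CO12 control, so its larger share under salt came mostly from reads that were not unique.

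Per length, the order of the loci can be read from RPKM, which divides RPM by the deposited gene length in kilobases. In CO12 salt LOC_Os12g37350 had 6.0 RPKM and LOC_Os12g37260 5.67 RPKM, ahead of LOC_Os02g10120 with 3.64 RPKM. In CO12 control LOC_Os02g10120 had 1.30 RPKM and LOC_Os12g37260 1.25 RPKM, while LOC_Os12g37350 had 0.398 RPKM. In Trichy 1 salt LOC_Os12g37260 led with 4.76 RPKM, before LOC_Os02g10120 with 2.91 RPKM and LOC_Os08g39840 with 2.37 RPKM. In Trichy 1 control LOC_Os02g10120 had 1.64 RPKM, LOC_Os12g37260 1.60 RPKM and LOC_Os08g39840 0.735 RPKM. The leading pair in each control library, and in CO12 salt, differed by a few reads' worth at most, and 16 of the 22 reads of LOC_Os12g37350 in CO12 salt were not unique, so the order within these pairs is not resolved. LOC_Os03g49260 was last in every library, with at most 0.097 RPKM. The sources used here do not say whether the deposited gene length counts introns, and the order depends on that length. How well finger millet transcripts match each rice locus would also set this order, and that was not tested.

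The salt response can also be set against itself between the genotypes. As a log2 difference, Trichy 1 minus CO12, the summed reads gave -0.84 (-1.30 to -0.37), from 1.29 in Trichy 1 and 2.12 in CO12. With TMM factors over all features it was -0.26, with a counting standard error of 0.24, which does not separate it from 0. The other scalings and unique reads gave values between -0.78 and -0.49, so its size depended on the scaling. The 3 loci with the most reads alone gave -0.43 (-0.96 to 0.11). Over all 686 features above the minimum in both genotypes the median difference was -0.20. The response of 9.18% was 2-fold or more above that in CO12, and of 16.8% as far below it. Of the lipoxygenase loci 3 were among these features and 0 were 2-fold apart in either direction. Their differences were -0.60 (-1.44 to 0.23) for LOC_Os12g37260, -0.66 (-1.54 to 0.23) for LOC_Os02g10120 and 0.23 (-0.91 to 1.37) for LOC_Os08g39840, each within counting error of no difference. With unique reads the difference of LOC_Os12g37260 was 0.10. The chromosome 3 run stood further apart, at -3.24 (-5.01 to -1.46), and the 7 loci besides the 3 with the most reads at -2.08 (-3.07 to -1.10). Both sets rest on few reads and were formed after their values were seen.

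Between the genotypes without salt, the summed lipoxygenase reads were 32.3 RPM in Trichy 1 control and 22.5 RPM in CO12 control, a ratio of 1.44 (1.11 to 1.86). With TMM factors over all features the log2 ratio was 0.08, against 0.52 with library totals. Of 3 loci over the minimum 0 were called higher and 0 lower, where 7.54% of all features were called higher and 9.19% lower. The chromosome 3 run had 15 reads in Trichy 1 control and 5 in CO12 control, 4.48 against 0.797 RPM, a ratio of 5.62 (1.94 to 19.8). Over all features, library totals gave 78 higher and 95 lower, TMM gave 27 and 200, and the median of ratios gave 51 and 136. Totals less the 20 most abundant features gave 51 and 138, and TMM over features at the minimum gave 60 and 117.

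Between the genotypes under salt the order of the sums was the opposite, with 78.9 RPM in Trichy 1 salt and 98.3 RPM in CO12 salt. The ratio was 0.803 (0.652 to 0.990), near equality at its upper end. The log2 ratio was -0.32 with library totals, -0.18 with TMM factors over all features and -0.17 by the median of ratios. The other settings gave values between -0.34 and -0.31. Without LOC_Os12g37260 the ratio was 0.786 (0.608 to 1.02), an interval that includes equality. The opposite order is therefore not firmly resolved. Of 4 loci over the minimum, 1 was called lower and 0 higher in Trichy 1, where 5.38% of all features were called lower and 7.47% higher. It was LOC_Os12g37350, with 8 reads in Trichy 1 salt and 22 in CO12 salt, 3.61-fold lower in Trichy 1 with a ratio of 0.277 (0.107 to 0.645). In unique reads it had 2 in Trichy 1 salt and 6 in CO12 salt and fell below the minimum. LOC_Os08g39840 had 18.3 RPM in Trichy 1 salt and 10.9 RPM in CO12 salt, a ratio of 1.67 (0.966 to 3.00). The genotype comparisons share libraries with the salt comparisons, so they are not separate observations. Over all features, library totals gave 43 higher and 31 lower, TMM gave 58 and 21, and the median of ratios gave 59 and 21.

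The loci whose pattern over the 4 libraries was most like that of LOC_Os12g37260 were sought among 654 other features with at least 80 reads in all, by the root mean square difference of log2 RPM after each feature's own mean was taken off. LOC_Os12g37860 (6854 bp) was nearest, at 0.13. It had 16.4 RPM in CO12 salt and 4.62 RPM in CO12 control, and 15 RPM in Trichy 1 salt and 5.08 RPM in Trichy 1 control, all from unique reads. LOC_Os06g39712 (884 bp) followed at 0.32, with 8 of its 72 reads in CO12 salt unique, and LOC_Os10g32810 (2709 bp) at 0.34. Among the lipoxygenase loci in this ranking, LOC_Os02g10120 was 6th nearest, at 0.36, and LOC_Os08g39840 was 16th, at 0.39. The likeness rests on 4 libraries, and the tables do not say what the 3 nearest loci encode.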

How the data were processed

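RNA of finger millet leaves was depleted of ribosomal RNA, fragmented with RNase III, ligated to adapters and sequenced on an Ion Proton instrument, per the labels' protocols. The authors deposited for each of 4 libraries a count of total gene reads and of unique gene reads per feature, whole numbers that are not normalized. The deposited RPKM values, per the file headers, equalled total gene reads scaled to a library of 1000000 and to a kilobase of gene length, to within a relative difference of 5.68e-08. Aligner, counter and build: not given in the sources used here. The table lists 55801 loci with LOC_Os identifiers. No file pairs identifiers with gene names and no annotation, genome or sequence was used here, so later genes of jasmonate synthesis and leaf markers were not matched and no sequence is printed. PCR copies are counted as reads.

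Total gene reads were scaled to library totals. For log2 ratios, and for the calls and ranks made from them, both counts got a depth-scaled prior count of 0.5. For calls, features needed at least 20 reads in either library, and the threshold was 2-fold. Ratios not given as log2 are of the counts without the prior, with 95% Clopper-Pearson intervals of the conditional binomial. Shares have Wilson intervals. A count of 0 allows up to 3 counts. Differences of response are of the log2 ratios with the prior, with intervals of 1.96 standard errors from the 4 counts with 0.5 added. No p-value is given, since each group has 1 library. The calculation was tested on simulated counts with counting error only, for features expected to reach 20 reads. Loci under that minimum and variation between libraries were not covered. Alternatives were TMM factors (edgeR 4.0.16), median-of-ratios factors (DESeq2 1.42.0), both also over features at the minimum (added after the data were seen), totals without the 20 most abundant features, unique reads, other minimums, prior and threshold. Python 3.11.15 and scipy 1.17.1 were used. The members, lists and groupings were chosen with earlier results of these data known. All 10 loci are named, with the 3 features nearest in pattern to the locus with the most reads.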

Additional observations from a re-analysis of the deposited data

Results flagged for a closer look

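LOC_Os03g49380, a lipoxygenase locus of the chromosome 3 run, had 4 reads under salt and 8 in control in Trichy 1, a ratio of 0.695 (95% counting interval 0.153 to 2.60) that includes equality. In CO12 it had 7 reads under salt and 4 in control, a ratio of 5.99 (1.52 to 27.9). It was under the minimum of 20 reads in all 4 libraries. The log2 difference of the salt response, Trichy 1 minus CO12, was -2.86 (-5.21 to -0.50), from log2 ratios with the prior count of 0.5. Ratios on opposite sides of equality in the genotypes drew attention to it, although no decrease in Trichy 1 was shown. The difference was not tested against replicates, since each group has 1 library.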

How the results depend on the processing

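The summed log2 ratio, salt over control, stayed above 1 in both genotypes under every scaling and read choice tried. In CO12 it was 2.12 as reported, 1.36 with TMM factors, 1.76 with unique reads and 1.60 by the median of ratios. For Trichy 1 over CO12 in control it was 0.08 with TMM factors, and for the difference of response -0.26. Median-of-ratios factors rested on the 4929 features with reads in all libraries, with medians of 3 to 6 reads. Why the TMM values moved was not tested. Loci called higher in CO12 salt numbered 4 as reported, 2 with TMM factors, 2 by the median of ratios, 2 in unique reads, 2 at 4-fold, 0 with a minimum of 100 reads and 9 with no minimum. Of all 1025 features in CO12, 111 were higher as reported, 35 with TMM factors and 50 by the median of ratios. In unique reads 63 of 848 were higher, and with no minimum 27.9%. At 4-fold, higher and lower were not counted apart over all features. In Trichy 1 salt the lipoxygenase loci called higher numbered 2 as reported, 0 at 4-fold, 0 with 100 reads and 5 with no minimum. Of all features there, 85 of 727 were higher as reported and 34.3% with no minimum. With no minimum, 4 loci were called higher and 1 was called lower for Trichy 1 over CO12 in control. Under salt 1 was called higher and 3 lower, and in the difference of response 3 lower. Of all features with any read, 23.8% of 25566 were called higher in control and 38.9% of 18315 under salt. The shares called lower without a minimum were not counted apart, so these counts support nothing beyond themselves. The 1 locus lower in Trichy 1 under salt, LOC_Os12g37350, became 0 at 4-fold. It was under the minimum in unique reads, with 2 in Trichy 1 salt and 6 in CO12 salt, so it could not be called there. No lipoxygenase locus had more than 64 reads in any library. The counts of 0 with a minimum of 100 reads, also those for salt, were thus fixed in advance and show nothing about the calls. Over all features, calls as reported numbered 307 for salt in CO12, 210 for salt in Trichy 1, 173 for the genotypes without salt, 74 for them with salt and 178 for the response difference. In this order they were 19824, 14743, 17325, 13244 and 8776 with no minimum, 70, 48, 40, 10 and 47 with 100 reads, and 82, 38, 16, 8 and 31 at 4-fold. CO12 salt had 504 with TMM factors and the difference of response 110 with unique reads. Of 350 values for single loci, 346 stayed within their counting interval and 4 moved. The 4 that moved were all for salt over control in CO12. They were LOC_Os02g10120 and LOC_Os12g37260 with TMM factors, and LOC_Os12g37260 and LOC_Os12g37350 with unique reads. Of the 350 values, 12 changed sign, none of them in a salt comparison within a genotype. The intervals of loci with few reads are wide, so staying within them shows little.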
